A study of Saccharomyces cerevisiae with 34 samples.

Results

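The genes described here encode the protein subunits of the yeast mitochondrial ribosome. They were chosen by name alone, as every nuclear gene whose standard name is MRPL, MRPS, RSM or MRP followed by a number. The rule finds 67 genes of the 6679 in each deposited table, 38 of the large subunit, 28 of the small subunit and 1, MRP8, outside the ribosome. MRP8 carries the prefix from an early sequence comparison, is not counted among the ribosomal proteins and has no known function. All 67 genes passed the filters on low values, so no gene drops out of the counts below.

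The mitochondrial ribosome translates the few messages encoded in mitochondrial DNA, nearly all of them for membrane subunits of the respiratory chain and of ATP synthase. Its RNAs come from mitochondrial DNA, whereas almost all of its proteins are made in the cytosol from nuclear genes and imported. Yeast growing on glucose ferments and can live without this ribosome, and its genes are known as a set whose expression moves with growth and carbon source. By the family names that RefSeq gives, 41 of the genes encode relatives of bacterial ribosomal proteins, 24 encode proteins found in mitochondrial ribosomes only, and RSM22, a methyltransferase-like factor, has no family name.

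The study measured mRNA by mRNA-seq and ribosome-protected fragments (footprints) by ribosome profiling in 34 libraries of Saccharomyces cerevisiae, SK1 background, grown in YEPD with 2% sugar at 30 °C. It asked how the unfolded protein response, the program that follows misfolding in the endoplasmic reticulum (ER), and its transcription factor Hac1 alter mRNA and translation. In the auxin experiment, strains with the auxin receptor TIR ("+TIR") or lacking it ("no TIR") received 500 µM auxin with 4 µM IP6, or DMSO and water as vehicle. After 15 min DTT (dithiothreitol, a thiol that breaks disulfide bonds) was added to 5 mM or left out. The series' design text speaks of wild-type and Hac1-depleted cells, so the +TIR cells with auxin are called Hac1-depleted and the no TIR cells with auxin Hac1-retained. The labels do not describe the degradation tag, and the level of Hac1 protein was not measured. The groups are +TIR with auxin and DTT, no TIR with auxin and DTT, +TIR with vehicle and DTT, no TIR with vehicle and DTT, +TIR with auxin alone and no TIR with auxin alone. Each has 1 library at 1 h and 1 at 2 h for each molecule, except that no TIR with auxin alone has the 1 h library only. In the deletion experiment, a strain with hac1 deleted (4431) and a wild-type (WT) strain (1362) were given 5 mM DTT, 2 µg/mL Tm (tunicamycin, an inhibitor of N-linked glycosylation) or no treatment, with 1 library for each strain, treatment and molecule. The labels give no treatment time for that experiment.

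Values are RPKM (reads per kilobase of gene, scaled to library size), so a fall is relative to the other genes of the same library. RPKM cannot tell a lower level per cell from a rise of other transcripts, and in bulk cultures fewer expressing cells and less RNA per cell cannot be told apart. Libraries were estimated to hold 6380000 to 36040000 reads in genes in the auxin experiment and 8280000 to 27110000 in the deletion experiment. The smallest estimated read number of any of the 67 genes was about 152, for MRPL39. Within a group, log2 values at 2 h and at 1 h correlated over all genes with Pearson coefficients of 0.980 to 0.996. HAC1 mRNA was 42.1 RPKM in untreated hac1-deletion cells, against 2372.2 RPKM in untreated WT cells. For the deletion libraries 1 label field names the other molecule than the titles do, and the titles and table headers were followed. HAC1, whose unspliced mRNA is known to be held untranslated, had 178.5 RPKM of footprints in untreated WT cells under that assignment, against 2372.2 RPKM of mRNA.

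In untreated WT cells the subunits had like median levels. The 38 large-subunit mRNAs had a median of 631.6 RPKM, and ranged between 163.9 RPKM for MRPL4, which encodes uL29m beside the exit tunnel, and 1228.1 RPKM for MRPL51, which encodes the mitochondria-specific mL43. The 28 small-subunit mRNAs had a median of 613.4 RPKM, with RSM22 lowest at 177.1 RPKM and MRPS16, the bS16m gene, highest at 1218.5 RPKM. Translational efficiency (TE, footprint RPKM over mRNA RPKM) had a median of 0.64 in the large subunit and 0.60 in the small subunit, against 0.64 over all genes. MRPL4 had both the lowest mRNA and the highest TE of the large subunit, at 1.94. MRPL9, the uL3m gene, had the lowest TE there at 0.41. In the small subunit TE was highest for MRP10 (mS37, a small twin-cysteine protein) at 1.36 and lowest for MRPS18 (uS11m) at 0.35. These levels come from 1 library of each molecule, so their order between neighbours was not tested.

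DTT lowered the mRNA and the footprints of both subunits together, in cells depleted for Hac1 and in cells that retained it. With Hac1 depleted, 57 of the 66 ribosomal genes fell in mRNA, 34 of 38 in the large and 23 of 28 in the small subunit, and none rose, where 17.5% of all genes tested fell and 41.1% rose. With Hac1 retained, 39 of 66 fell in mRNA, 23 large and 16 small, and none rose, where 12% of all genes fell and 28.6% rose. The median log2 change of the 66 genes was -0.71 with Hac1 depleted, against a median of 0.26 over all genes, and -0.64 with Hac1 retained, against 0.24. Both responses were tested with limma on log2(RPKM + 1), with Benjamini-Hochberg adjustment over all genes and a call at adjusted p under 0.05. The response with Hac1 retained rests on 1 library without DTT, which the fit takes to vary like the others. Without the 2 h library of the Hac1-retained DTT group, fewer ribosomal genes were called lower in mRNA with Hac1 retained. The share of all genes called lower dropped less. That fit leaves a single library on each side.

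**Figure D1:**
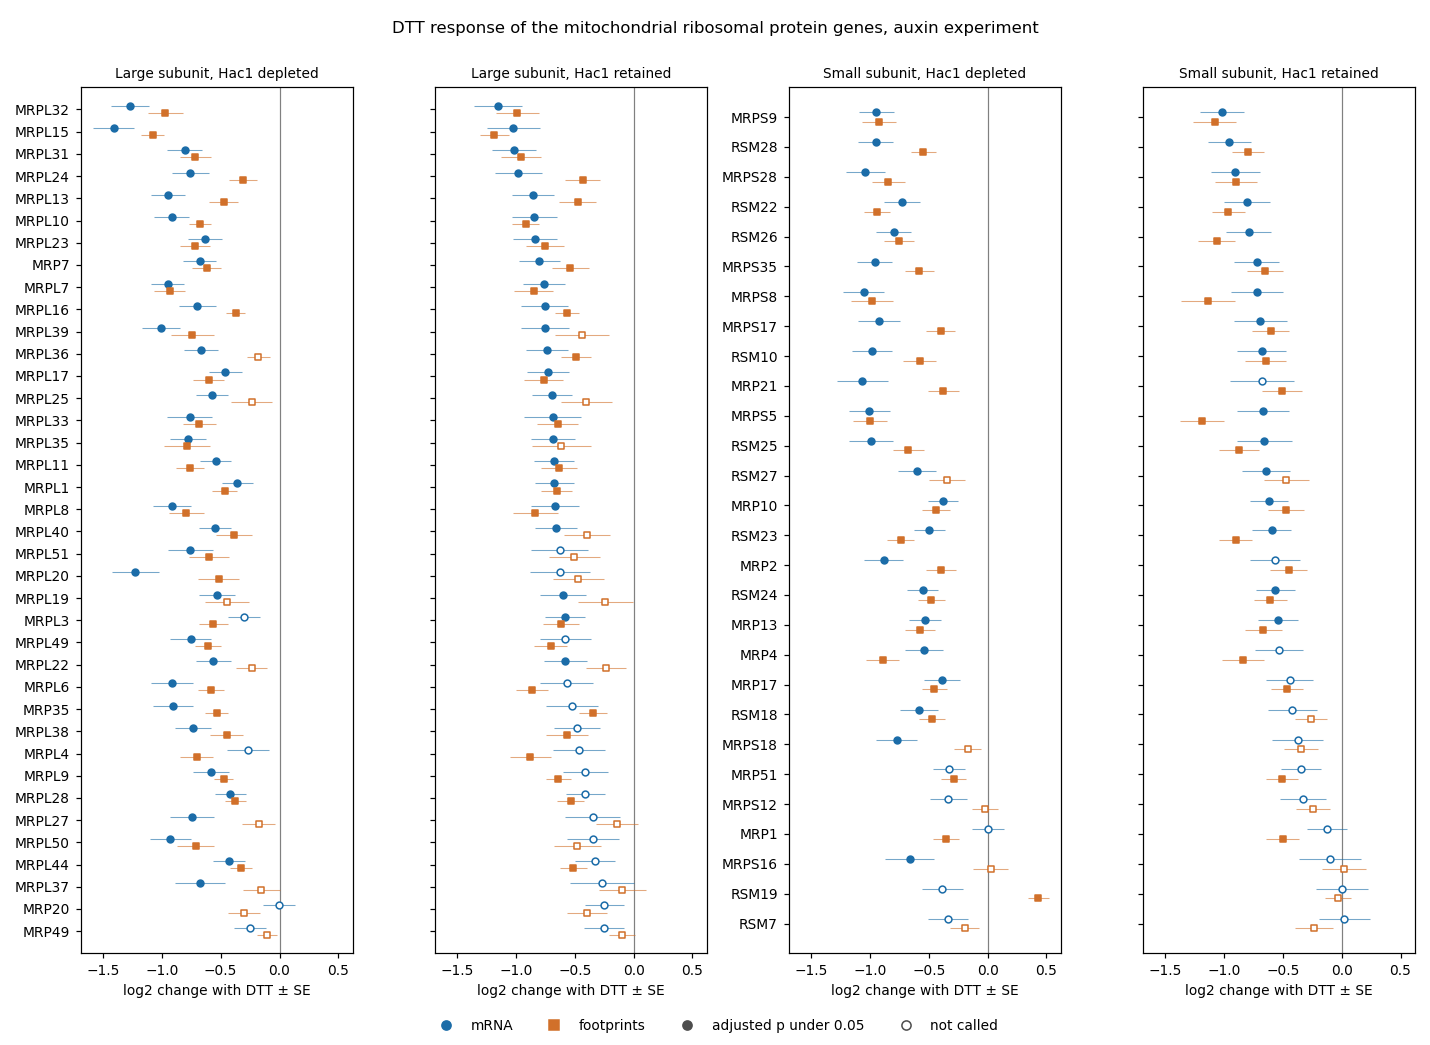
Log2 change with DTT of each ribosomal protein gene (rows, ordered within a subunit by the mRNA change with Hac1 retained) for mRNA (blue circles) and footprints (orange squares), with standard errors from limma as lines. Filled symbols passed an adjusted p of 0.05; nearly all symbols lie left of 0, and RSM19 footprints with Hac1 depleted are the filled symbol on the right at 0.43.

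The level itself shows the same shift in each library. Summed over the 38 large-subunit genes, mRNA was 16708 and 16749 RPKM at 1 h and 2 h in Hac1-depleted cells with DTT, 20312 and 16073 RPKM in Hac1-retained cells with DTT, 20573 and 18213 RPKM in +TIR cells with vehicle and DTT, and 18996 and 19640 RPKM in no TIR cells with vehicle and DTT. Without DTT the sum was 26344 and 29538 RPKM in +TIR cells and 28780 RPKM in no TIR cells. Every DTT library lay below every library without DTT. Small-subunit sums were 12491 to 15673 RPKM over the 8 DTT libraries, against 19106 to 22363 RPKM over the 3 libraries without DTT. Footprint sums behaved alike, at 10279 to 13807 RPKM with DTT for the large subunit, against 16409 to 18345 RPKM without. For the small subunit they were 7926 to 10542 RPKM with DTT, against 11850 to 13105 RPKM without.

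**Figure D2:**
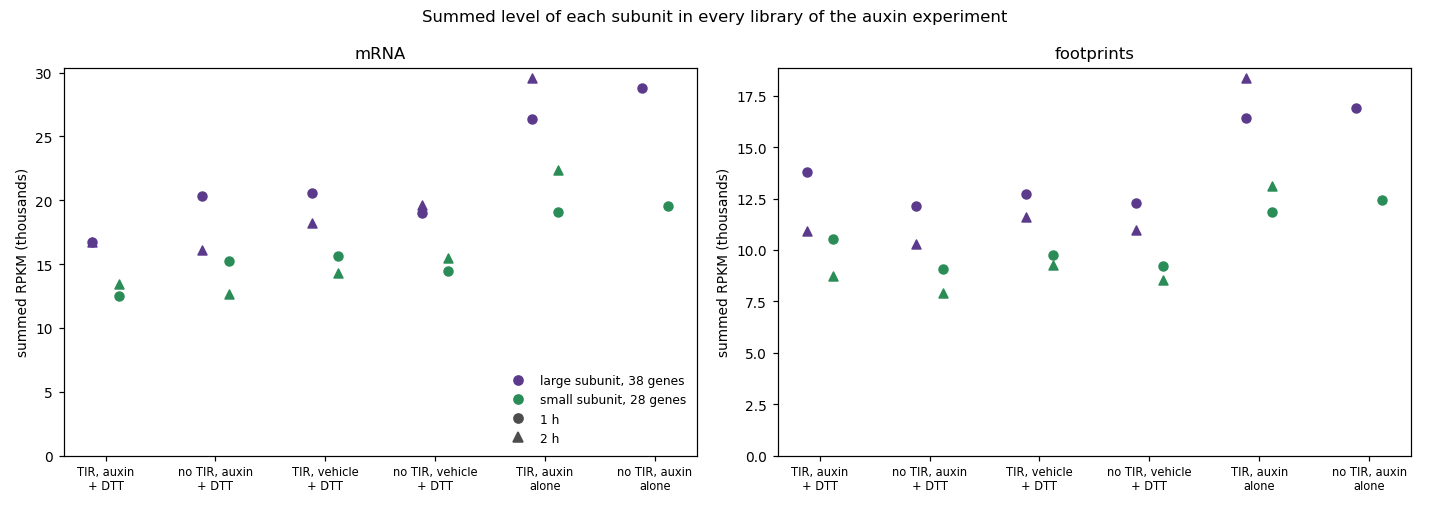
Summed RPKM of the 38 large-subunit genes (purple) and the 28 small-subunit genes (green) in each library, for mRNA on the left and footprints on the right, with circles for 1 h and triangles for 2 h. In all 4 sums the 8 DTT libraries lie below the 3 libraries without DTT.

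Footprints fell in 52 of 66 genes with Hac1 depleted, 30 large and 22 small, where 19.8% of all genes fell and 49.6% rose. With Hac1 retained they fell in 46 of 66, 25 large and 21 small, where 14.6% of all genes fell and 47.5% rose. The median log2 change of footprints was -0.53 with Hac1 depleted and -0.57 with Hac1 retained, against 0.29 and 0.34 over all genes. RSM19 of the small subunit rose in footprints with Hac1 depleted, and none rose with Hac1 retained.

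Gene by gene, the 8 DTT libraries did not overlap the 3 libraries without DTT for most of the ribosome. mRNA was lower in all 8 for 57 of 66 genes, 33 large and 24 small, where 16.6% of all genes were. Footprints were lower in all 8 for 55 of 66 genes, 32 large and 23 small, where 18.6% of all genes were. No gene of either subunit was higher in all 8 DTT libraries in either molecule, where 40% of all genes were for mRNA and 49.0% for footprints.

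The largest falls were in genes of both subunits. MRPL15, the gene for the mitochondria-specific large-subunit protein mL57, had 353.4 and 337.5 RPKM of mRNA at 1 h and 2 h in Hac1-depleted cells with DTT, and 481.9 and 339.4 RPKM in Hac1-retained cells with DTT. The 4 vehicle libraries with DTT held 437.2 to 515.5 RPKM, and the 3 libraries without DTT held 833.8, 1013.7 and 850.8 RPKM. The DTT libraries thus lay apart from the rest, and the log2 change of MRPL15 mRNA was -1.41 ± 0.18 (SE, adjusted p = 5.43e-05) with Hac1 depleted and -1.02 ± 0.22 (adjusted p = 0.0039) with Hac1 retained. Footprints of MRPL15 were 128.5 to 172.0 RPKM over the DTT libraries with a median of 142.0 RPKM, against 318.8 to 320.6 RPKM without DTT. Their log2 change was -1.08 ± 0.10 (adjusted p = 4.36e-05) with Hac1 depleted and -1.18 ± 0.12 (adjusted p = 0.000148) with Hac1 retained.

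MRPL32 encodes bL32m, a large-subunit protein known in yeast to be matured by the m-AAA protease of the inner membrane before it joins the ribosome. Its mRNA was 346.2 and 378.9 RPKM in Hac1-depleted cells with DTT, 528.8 and 384.9 RPKM in Hac1-retained cells with DTT and 496.1 to 508.9 RPKM in the vehicle libraries with DTT, against 846.7, 906.1 and 1017.9 RPKM without DTT. The groups with and without DTT did not overlap, and the log2 changes were -1.27 ± 0.16 (adjusted p = 5.93e-05) with Hac1 depleted and -1.15 ± 0.20 (adjusted p = 0.00112) with Hac1 retained. MRPL20 encodes mL58, another protein without a bacterial relative. Its mRNA ranged between 509.0 and 848.7 RPKM over the 8 DTT libraries, median 666.9 RPKM, against 1019.7 to 1361.6 RPKM without DTT. MRPL20 mRNA fell by 1.22 ± 0.20 on the log2 scale with Hac1 depleted (adjusted p = 0.000342), and its change with Hac1 retained was -0.62 ± 0.25 (adjusted p = 0.067).

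In the small subunit, MRPS9, MRPS5 and MRPS8 stood at the front. They encode uS9m, uS5m and uS8m, core proteins shared with the bacterial small subunit. MRPS9 mRNA was 397.6 to 530.1 RPKM over the DTT libraries, against 901.6 to 970.7 RPKM without DTT, and changed by -0.95 ± 0.15 (adjusted p = 0.000279) with Hac1 depleted and by -1.02 ± 0.19 (adjusted p = 0.00157) with Hac1 retained. MRPS5 footprints were 127.0 and 85.8 RPKM in Hac1-depleted cells with DTT, 96.3 and 83.4 RPKM in Hac1-retained cells with DTT, and 84.6 to 120.9 RPKM with vehicle and DTT, against 199.97, 220.1 and 224.4 RPKM without DTT. MRPS5 footprints changed by -1.0 ± 0.15 (adjusted p = 0.000500) with Hac1 depleted and by -1.19 ± 0.19 (adjusted p = 0.000969) with Hac1 retained. MRPS8 footprints lay between 151.9 and 263.2 RPKM with DTT, against 395.9 to 455.7 RPKM without, and changed by -0.98 ± 0.18 (adjusted p = 0.00166) and -1.14 ± 0.23 (adjusted p = 0.00323) with Hac1 depleted and retained. For these 3 genes too no DTT library reached a library without DTT.

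RSM22, the longest and least abundant gene of the small subunit, followed the others. Its mRNA was 111.0 to 144.7 RPKM over the DTT libraries, against 205.9 to 228.1 RPKM without, and its footprints were 34.7 to 45.4 RPKM, against 74.7 to 79.3 RPKM. RSM22 footprints fell by 0.94 ± 0.11 on the log2 scale with Hac1 depleted (adjusted p = 0.000161) and by 0.96 ± 0.14 with Hac1 retained (adjusted p = 0.000687).

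Genes of bacterial-type and of mitochondria-specific proteins fell alike in direction. Of the 41 genes with bacterial relatives, 35 fell in mRNA with Hac1 depleted and 22 with Hac1 retained, with median log2 changes of -0.74 and -0.66. Of the 24 mitochondria-specific genes, 21 and 16 fell, with medians of -0.64 and -0.63. Over all genes 17.5% and 12% fell in mRNA. In footprints, 32 and 29 of the bacterial-type genes fell, with medians of -0.47 and -0.56. So did 19 and 16 of the mitochondria-specific genes, with medians of -0.53 and -0.57, where 19.8% and 14.6% of all genes fell. No test of the difference between the classes was made. Across the 66 genes the mRNA change and the footprint change had Pearson correlations of 0.52 with Hac1 depleted and 0.67 with Hac1 retained, a description of genes measured in the same libraries. Both mRNA and footprints fell in 48 genes with Hac1 depleted and 32 with Hac1 retained, and mRNA alone in 9 and 7. Footprints alone changed in 5 genes with Hac1 depleted, RSM19 with its rise among them, and in 14 with Hac1 retained. The share of all genes in each of these joint counts was not taken, so they have no background.

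A small number of ribosomal genes did not move with the rest. RSM19, which encodes uS19m of the small-subunit head, had 928.3 and 1307.5 RPKM of mRNA in Hac1-depleted cells with DTT, 1252.4 and 1300.2 RPKM in Hac1-retained cells with DTT and 1223.7 to 1678.2 RPKM with vehicle and DTT, against 1211.2, 1708.1 and 1155.2 RPKM without DTT. The groups overlapped, and its mRNA change was -0.38 ± 0.17 (adjusted p = 0.0735) with Hac1 depleted and 0.00 ± 0.22 (adjusted p = 0.993) with Hac1 retained. RSM19 footprints were 903.7 and 902.7 RPKM in Hac1-depleted cells with DTT and 712.8 and 715.8 RPKM in Hac1-retained cells with DTT. With vehicle and DTT they were 816.4 to 867.5 RPKM, and without DTT 705.2, 636.4 and 731.1 RPKM. The rise of RSM19 footprints with Hac1 depleted was 0.43 ± 0.09 (adjusted p = 0.00287), and after median-ratio scaling it was 0.12 and no longer called (adjusted p = 0.308), with adjusted p of 0.00104 to 0.022 in the other settings. The change with Hac1 retained was -0.03 ± 0.11 (adjusted p = 0.826). The difference between these changes was 0.46 ± 0.14 (adjusted p = 0.155). RSM19 lies next to another gene of the set, MRPS12 (uS12m of the decoding centre), whose footprints changed by -0.02 ± 0.11 (adjusted p = 0.869) with Hac1 depleted. These are the only neighbouring genes among the 67 in the RefSeq annotation.

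MRPS16, RSM7 (uS7m), MRP1 (mS43, a relative of manganese superoxide dismutase), MRP20 (uL23m at the tunnel exit) and MRP49 (mL61) also overlapped between libraries with and without DTT in mRNA, as did MRPL4, MRPL37, MRPL50 and RSM19. MRP1 mRNA was 461.2 to 605.5 RPKM with DTT, median 543.1 RPKM, against 525.1 to 582.6 RPKM without, and changed by 0.00 ± 0.13 (adjusted p = 0.993) with Hac1 depleted. Its footprints were 206.4 to 297.7 RPKM with DTT, against 327.2 to 346.7 RPKM without, a fall of 0.35 ± 0.11 on the log2 scale (adjusted p = 0.0213) with Hac1 depleted and of 0.50 ± 0.14 (adjusted p = 0.0144) with Hac1 retained. For MRP1, then, footprints separated the libraries with and without DTT where mRNA did not. MRP49 changed in neither molecule at the threshold, at -0.25 ± 0.13 in mRNA (adjusted p = 0.134) and -0.10 ± 0.09 in footprints (adjusted p = 0.306) with Hac1 depleted.

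MRP8 ran opposite to the ribosomal genes. Its mRNA was 2222.1 and 3129.3 RPKM in Hac1-depleted cells with DTT, 2068.1 and 2473.5 RPKM in Hac1-retained cells with DTT and 1937.3 to 3147.3 RPKM with vehicle and DTT, against 882.9, 982.5 and 848.6 RPKM without DTT. Every DTT library was above every library without DTT, and mRNA rose by 1.5 ± 0.15 on the log2 scale with Hac1 depleted (adjusted p = 1.55e-05) and by 1.23 ± 0.19 with Hac1 retained (adjusted p = 0.000603). MRP8 footprints were 2953.7 and 3586.7 RPKM in Hac1-depleted cells with DTT and 2004.9 and 2704.3 RPKM in Hac1-retained cells with DTT, against 762.8, 808.9 and 787.8 RPKM without DTT. They rose by 2.05 ± 0.12 with Hac1 depleted (adjusted p = 5.65e-06) and by 1.44 ± 0.15 with Hac1 retained (adjusted p = 0.000140).

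**Figure D3:**
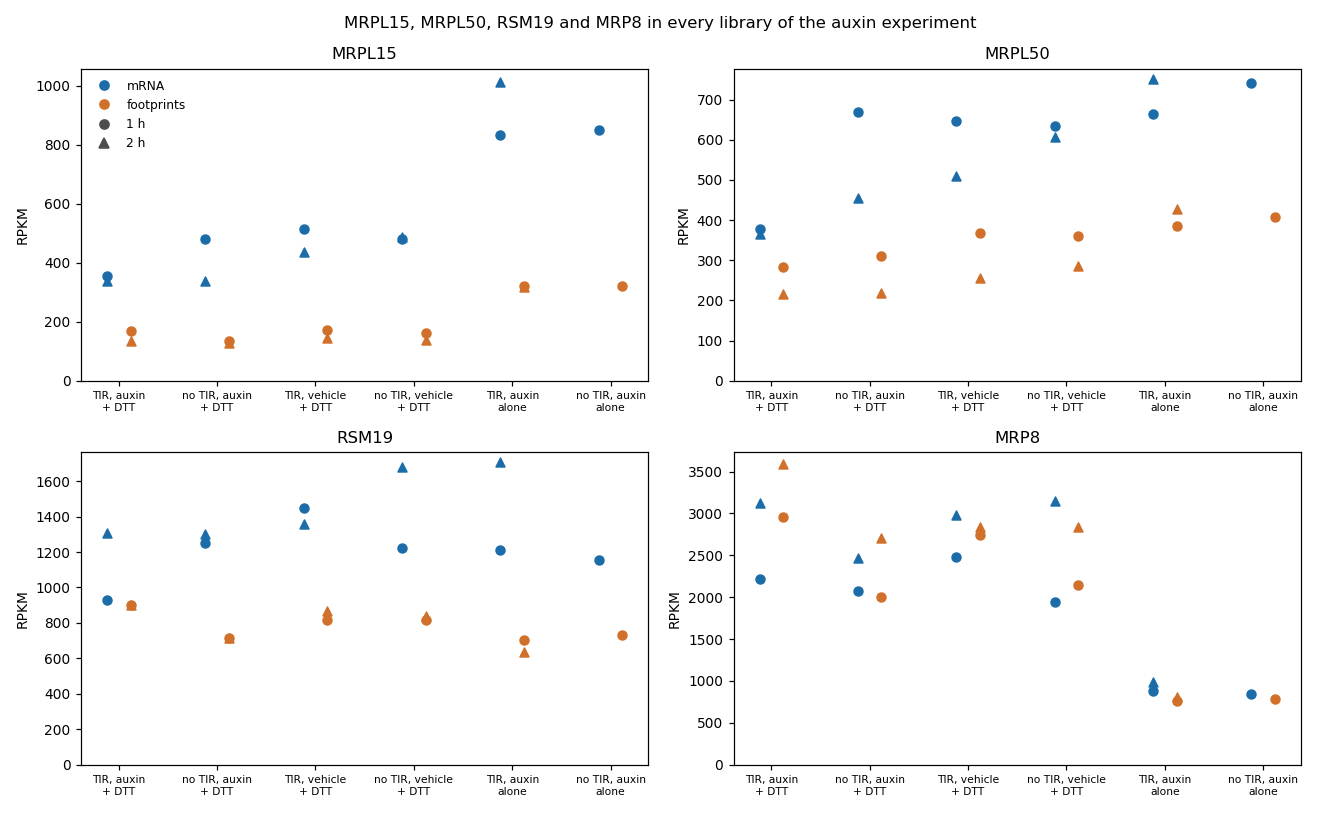
RPKM of MRPL15, MRPL50, RSM19 and MRP8 in each library of the auxin experiment, mRNA in blue and footprints in orange, with circles for 1 h and triangles for 2 h. MRPL15 is lower and MRP8 higher in every DTT library, MRPL50 mRNA is lowest in +TIR cells with auxin and DTT at 377.0 and 365.5 RPKM, and RSM19 mRNA overlaps between libraries with and without DTT.

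No ribosomal gene passed the test of Hac1 depletion under DTT. In the direct comparison of depleted with retained cells, both with DTT, no ribosomal gene was called in mRNA by limma where 6.08% of all genes were called. An unadjusted p under 0.05 was found for 2 of 66, against 23% of all genes. The 2 genes were MRPL50, which encodes bL9m, and MRPL4. The median difference of the 66 was -0.07, and 0.11 without the 1 h library of Hac1-retained cells with DTT. MRPL50 had 377.0 and 365.5 RPKM of mRNA in Hac1-depleted cells with DTT, 667.9 and 454.6 RPKM in Hac1-retained cells with DTT, 509.1 to 647.6 RPKM with vehicle and DTT, and 665.2, 750.4 and 741.2 RPKM without DTT. Both depleted libraries with DTT were thus below all others, with a difference from Hac1-retained cells of -0.57 ± 0.17 (adjusted p = 0.081) and from +TIR cells with vehicle of -0.63 ± 0.17 (adjusted p = 0.0563). Footprints of MRPL50 differed by -0.07 ± 0.16 (adjusted p = 0.833) between depleted and retained cells. MRPL4 mRNA was 240.6 and 156.3 RPKM in Hac1-depleted cells with DTT, against 133.9 and 137.1 RPKM in Hac1-retained cells with DTT, a difference of 0.51 ± 0.18 (adjusted p = 0.114). MRPL50 and MRP1, both members of the set, do not meet the rules given with the processing for naming single genes. They and the other genes named outside those rules were chosen after their values were seen.

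In footprints limma called none of the 66 genes between depleted and retained cells with DTT, where 9.61% of all genes were called. An unadjusted p under 0.05 was found for 12 of 66, against 23.9% of all genes. The differences were above 0 in 60 of 66 with a median of 0.18, against 52.9% of all genes above 0 with a median of 0.02. When the 1 h or the 2 h library of +TIR with auxin alone was left out 12 of 66 genes were called, all higher in depleted cells, where 8.32% and 8.34% of all genes were called higher. MRP8 footprints were higher in depleted cells by 0.48 ± 0.12 (adjusted p = 0.0405), a call that held in 7 of 18 alternative settings. In TE limma called none of the 66, where 0.357% of all genes were called. An unadjusted p under 0.05 was found for 19 of 66, with a median difference of 0.25, against 14.9% of all genes and a median of -0.01. Without the 2 h libraries of Hac1-retained cells with DTT 5 genes were called in TE, all higher in depleted cells, where 2.61% of all genes were called higher. These comparisons share the DTT libraries with the responses above. In limma's test of whether the DTT response itself differed between depleted and retained cells, no ribosomal gene was called in mRNA, footprints or TE, where 1.06%, 2.49% and 0.131% of all genes were called. An unadjusted p under 0.05 was found for 0, 1 and 4 of them, against 13.7%, 18.2% and 9.06% of all genes. MRP8 responses differed by 0.27 ± 0.25 in mRNA (adjusted p = 0.603) and 0.61 ± 0.19 in footprints (adjusted p = 0.155). Of the 57 genes that fell in mRNA with Hac1 depleted, 38 (66.7%) also fell with Hac1 retained, which is 97.4% of the 39 there. The same overlap was not taken over all genes, so these shares have no background.

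With DTT, TE of the ribosomal genes did not pass the test where Hac1 was retained. By limma none of 66 was called, where 3.77% of all genes were. An unadjusted p under 0.05 was found for 4 of 66, against 16% of all genes, and the median log2 change was 0.03, against 0.10 over all genes. With Hac1 depleted, 11 of 66 rose in TE and none fell, where 14.4% of all genes rose and 6.76% fell. The share that rose is thus near that of all genes. The median log2 change was 0.15, against 0.05 over all genes. The 11 were RSM19, MRP21, MRPS16, MRPS18, MRPS17 and MRP2 of the small subunit, and MRPL20, MRPL27, MRPL37, MRPL36 and MRPL13 of the large one. RSM19 rose most, by 0.81 ± 0.18 (adjusted p = 0.00464), followed by MRPL20 at 0.71 ± 0.17 (adjusted p = 0.0097), MRPS16 at 0.69 ± 0.19 (adjusted p = 0.018) and MRP21 (bS21m) at 0.69 ± 0.20 (adjusted p = 0.0236).

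These calls depend on 3 of the library pairs. Median TE in Hac1-depleted cells with DTT was 0.78 for both subunits at 1 h, and at 2 h it was 0.63 in the large and 0.64 in the small subunit. In the other 6 library pairs with DTT the large-subunit median was 0.53 to 0.61, and without DTT it was 0.56 to 0.62. TE of MRPS16 was 1.16 at 1 h and 0.65 at 2 h in Hac1-depleted cells with DTT, 0.63 and 0.68 in Hac1-retained cells with DTT, and 0.51 to 0.64 without DTT. TE of MRPL20 was 0.93 and 0.64 in Hac1-depleted cells with DTT, 0.55 and 0.63 in Hac1-retained cells with DTT, and 0.47 to 0.54 without DTT. In both genes the 1 h value of depleted cells stood above the rest. Most or all of the TE calls with Hac1 depleted were lost without that 1 h pair, and without either pair of +TIR with auxin alone. They were kept without the 2 h pair of Hac1-depleted cells with DTT. Each of these fits leaves a group with a single pair. Without either pair of +TIR with auxin alone, fewer of all genes rose in TE too. Over all genes the 1 h pair of Hac1-depleted cells with DTT had a median TE of 0.67, against 0.58 to 0.64 in the other 10 pairs. Shorter genes had the larger TE changes, with a Pearson correlation to gene length of -0.46 with Hac1 depleted and -0.32 with Hac1 retained across the 66 genes, a description over genes of the same libraries.

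Averaged over the hours, the difference of auxin from vehicle under DTT was below 0 for most of these mRNAs in both strains. In no TIR cells the hours differed. Their large-subunit mRNA sum at 1 h was higher with auxin, 20312 RPKM against 18996 RPKM with vehicle. At 2 h it was lower, 16073 RPKM against 19640 RPKM. In +TIR cells this sum was lower with auxin at both hours. In +TIR cells limma called no ribosomal gene in mRNA or footprints, where 5.99% and 6.61% of all genes were called, and 8 and 1 of 66 had an unadjusted p under 0.05, against 25.7% and 19.2% of all genes. The mRNA differences were below 0 in 58 of 66 genes in +TIR cells, with a median of -0.18, and in 60 of 66 in no TIR cells, with a median of -0.10, against 48.2% and 52.7% of all genes. In TE, 53 of 66 genes were above 0 in +TIR cells, with a median of 0.22, against 45.4% of all genes and a median of -0.04. Between 2 h and 1 h, MRPL39 (bL33m) fell in footprints by 0.40, MRPL50 by 0.32 and MRPL33 (uL30m) by 0.29 on the log2 scale, where 24.5% of all genes changed. When the 1 h or the 2 h library of +TIR with auxin alone was left out 34 of the 66 fell in footprints at 2 h, where 24% and 23.9% of all genes fell, and no gene of the 67 was called in footprints when any single DTT library was left out.

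In the deletion experiment there is 1 library per group, so no test was made and a gene is counted where it moved at least 1.5-fold. With DTT, 8 of 66 ribosomal mRNAs were past that fold and lower in hac1-deletion cells, where 12.9% of all genes were, and 11 of 66 in WT cells, where 14.9% of all genes were. None was past it and higher in either strain. After median-ratio scaling, 25 of the 67 mRNAs were past the fold and lower in hac1-deletion cells and 47 of 67 in WT cells. Shares of all genes in this paragraph are for the values as deposited, so they are no background for the scaled counts. As deposited, the median log2 ratios were -0.44 in hac1-deletion cells and -0.45 in WT cells, against 0.16 and 0.30 over all genes. MRPL15 mRNA was 553.0 RPKM with DTT and 907.5 RPKM untreated in hac1-deletion cells, and 445.7 RPKM with DTT and 747.6 RPKM untreated in WT cells. MRPL32 mRNA was 559.1 RPKM with DTT and 909.7 RPKM untreated in hac1-deletion cells, and 373.0 RPKM with DTT and 652.3 RPKM untreated in WT cells. Both genes, which led the falls in the auxin experiment, were thus lower with DTT in each strain. In footprints 10 of 66 genes were past the fold and lower with DTT in hac1-deletion cells, where 13.7% of all genes were, and 16 of 66 in WT cells, where 15.2% were. After median-ratio scaling 41 of 67 in hac1-deletion cells and 50 of 67 in WT cells were past the fold and lower. As deposited, the footprint medians were -0.46 and -0.44, against 0.18 and 0.35 over all genes.

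Tm ratios differed between the strains, with 1 library each. In hac1-deletion cells no ribosomal mRNA was past the fold, the median log2 ratio was -0.01 and the values lay between -0.38 and 0.13, where 0.72% of all genes were past the fold and lower. In WT cells none was past it either, where 10.2% of all genes were, but 55 of 66 were below 0, with a median of -0.25 against 0.15 over all genes. MRPL15 mRNA was 915.6 RPKM with Tm and 907.5 RPKM untreated in hac1-deletion cells, and 533.7 RPKM with Tm and 747.6 RPKM untreated in WT cells. MRPS5 mRNA was 757.0 RPKM with Tm and 840.2 RPKM untreated in hac1-deletion cells, and 306.3 RPKM with Tm and 435.9 RPKM untreated in WT cells. In footprints none of 66 was past the fold in hac1-deletion cells, where 0.34% of all genes were past it and lower. In WT cells 7 were past it and lower, where 11.8% of all genes were. Both counts are near the share of all genes. The footprint medians were -0.06 in hac1-deletion cells and -0.33 in WT cells, against 0.10 and 0.12 over all genes. Relative to the median of their own chromosome, 64 of 66 footprint values were lower with Tm in hac1-deletion cells, by a median of -0.16, and 64 of 66 in WT cells, by a median of -0.47. The difference of the Tm responses was above 0 in 54 of 66 genes in mRNA, with a median of 0.17, against -0.10 over all genes, and no mRNA differed by 1.5-fold. Relative to their own chromosome it was above 0 in 57 of 66, with a median of 0.28. In footprints it was past that fold in 5 of 66 genes, all higher in hac1-deletion cells, where 13.1% of all genes were, with a median of 0.28. With no second library this difference has no replicate check.

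**Figure D4:**
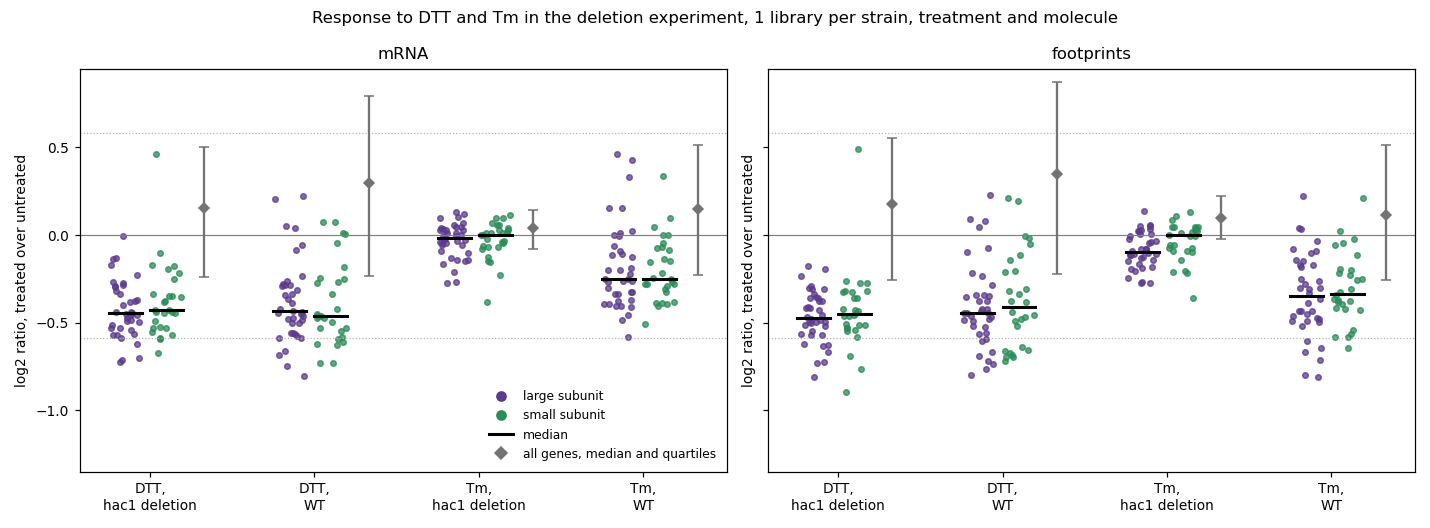
Log2 ratio of treated over untreated for each large-subunit gene (purple) and small-subunit gene (green) in the deletion experiment, with bars at the subunit medians and grey diamonds with quartile lines for all genes; dotted lines mark 1.5-fold. Tm ratios lie near 0 in hac1-deletion cells, with a median of -0.01 in mRNA, and mostly below 0 in WT cells, with a median of -0.25.

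RSM19, MRPL50 and MRP8 are followed here as in the auxin experiment. RSM19 mRNA was 1755.1 RPKM with DTT and 1274.8 RPKM untreated in hac1-deletion cells, and 1106.9 RPKM with DTT and 1051.9 RPKM untreated in WT cells. It was the only ribosomal mRNA above its untreated level with DTT in hac1-deletion cells. MRPL50 mRNA was 516.3 RPKM with DTT and 729.9 RPKM untreated in hac1-deletion cells, and 741.0 RPKM with DTT and 642.2 RPKM untreated in WT cells. Its log2 responses differed by -0.70 between the strains, and MRPL50 was the only ribosomal mRNA whose DTT response differed by 1.5-fold, where 14.9% of all genes were that much lower in the deletion. After median-ratio scaling no ribosomal gene differed by that fold. Relative to their own chromosome all 66 mRNAs, MRPL50 among them, were lower with DTT in WT cells, the highest at -0.06. MRP8 mRNA was 2775.7 RPKM with DTT, 929.2 RPKM with Tm and 629.8 RPKM untreated in hac1-deletion cells. In WT cells it was 2069.2 RPKM with DTT, 1299.3 RPKM with Tm and 583.3 RPKM untreated. MRP8 was thus higher with either agent in both strains.

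Levels in the hac1-deletion strain were above WT for most of the ribosome before any treatment. In untreated cells 14 of 66 mRNAs were past the fold and higher in the deletion, where 13.7% of all genes were, and 2 were past it and lower, where 8.85% were. The median log2 ratio was 0.38, against 0.21 over all genes. The ratios of this comparison differed by chromosome. The 403 other genes of chromosome II had a median log2 ratio of 0.75 and the 255 other genes of chromosome VIII one of -0.80, whereas the medians of the other 14 chromosomes were 0.17 to 0.28. When +TIR was set against no TIR cells, with auxin alone or with vehicle and DTT, the medians of those 14 chromosomes lay near 0. They were -0.02 to 0.03 in mRNA and -0.02 to 0.06 in footprints. These ranges do not include chromosomes II and VIII. The 7 ribosomal genes on chromosome II (MRPL16, MRPL27, MRPL36, MRPL37, MRP21, MRPS5 and MRPS9) had ratios of 0.87 to 1.06, and the 2 on chromosome VIII, MRPL6 and MRP4, had ratios of -0.71 and -0.69. Without these 9 genes, an alternative chosen after seeing the data, 7 of 57 mRNAs were past the fold, all higher in the deletion, with a median of 0.35. The 13.7% of all genes above includes chromosomes II and VIII, so it is no matched background for this count. The part of the chromosome shift in these values was not tested beyond this count. Where a treated library is set against the untreated one of its strain, a shift equal in both would cancel, and this was not tested.

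**Figure D5:**
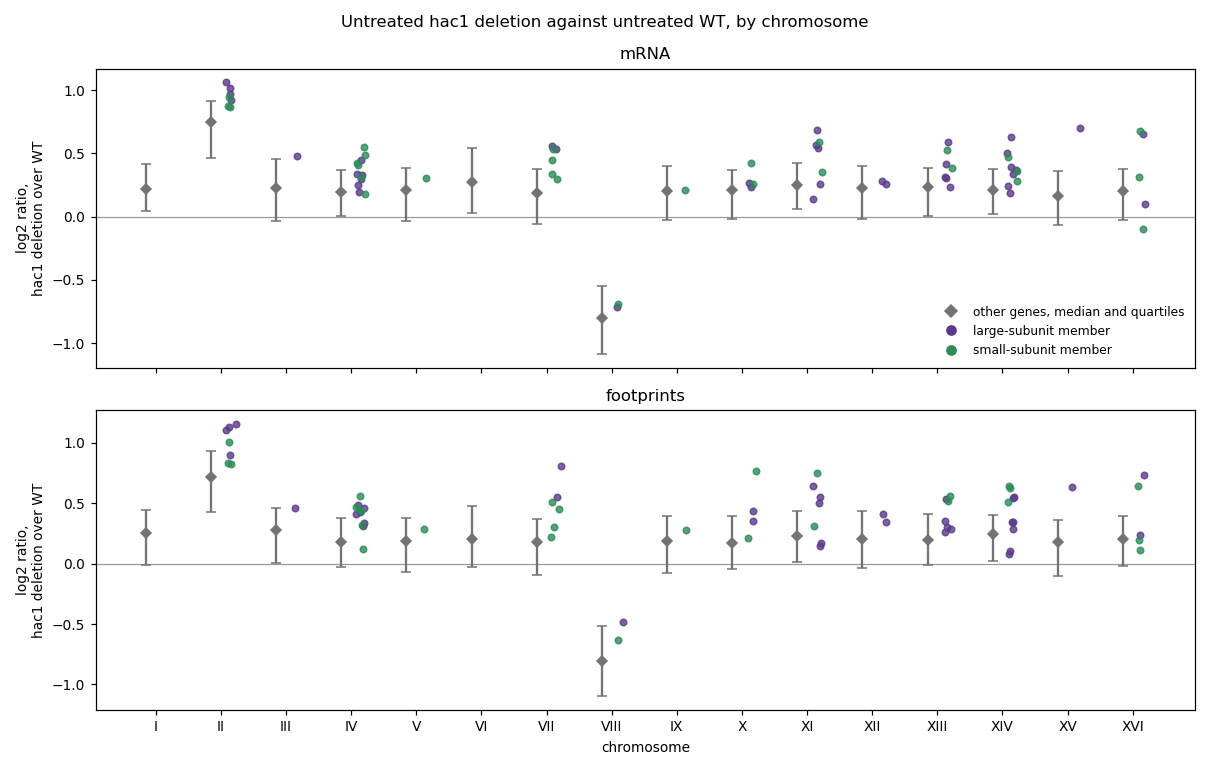
Log2 ratio of untreated hac1-deletion over untreated WT cells for the ribosomal genes on each chromosome (purple large subunit, green small subunit), beside the median and quartiles of the other genes of that chromosome (grey), for mRNA above and footprints below. Other genes on chromosome II have a median of 0.75 and on chromosome VIII of -0.80 in mRNA, and the ribosomal genes there lie with them.

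Measured against the median of their own chromosome, 60 of 66 mRNAs were higher in the deletion untreated, by a median of 0.15. With DTT 64 of 66 were higher, by a median of 0.30, and with Tm 62 of 66, by a median of 0.55. In footprints the medians were 0.24 untreated, 0.32 with DTT and 0.52 with Tm. By the plain ratio, 12 of 66 mRNAs were past the fold and higher in the deletion with DTT, where 11.5% of all genes were, and 36 of 66 with Tm, where 18.1% were. In footprints 16 were higher untreated, where 14.8% of all genes were, 16 with DTT, where 11.4% were, and 43 with Tm, where 23.5% were.

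Other genes of mitochondrial translation were read from lists. Over all genes, 17.5% fell and 41.1% rose in mRNA with Hac1 depleted, and 12% fell and 28.6% rose with Hac1 retained. Of 14 further named ribosomal proteins outside the naming rule, 10 fell in mRNA under DTT with Hac1 depleted and 7 with Hac1 retained, and none rose. MNP1 (bL12m) changed by -1.46 ± 0.20 with Hac1 depleted (adjusted p = 0.000116) and by -0.99 ± 0.26 with Hac1 retained (adjusted p = 0.0103). PET123, which encodes the small-subunit protein mS26, changed by -0.70 ± 0.13 (adjusted p = 0.000947) and -0.96 ± 0.17 (adjusted p = 0.00104). Of 10 translation factors 4 and 7 fell, with TUF1, the elongation factor Tu, at -0.76 ± 0.15 (adjusted p = 0.00114) and -1.03 ± 0.19 (adjusted p = 0.00139). Of 16 mitochondrial tRNA synthetases 2 and 3 fell, shares near the 17.5% and 12% of all genes that fell, with list medians of -0.16 and -0.19. Assembly factors changed in both directions. Of 13, 3 fell and 3 rose with Hac1 depleted, and 4 fell and 1 rose with Hac1 retained. MRM1, the rRNA ribose methyltransferase, changed by -1.31 ± 0.21 (adjusted p = 0.000344) and -1.36 ± 0.27 (adjusted p = 0.00233), and MTG1, a GTPase of ribosome assembly, by 0.51 ± 0.15 (adjusted p = 0.0144) and 0.89 ± 0.19 (adjusted p = 0.00394). Of 16 translational activators, which help single mitochondrial messages to be translated, 3 fell and 2 rose with Hac1 depleted, and 5 fell and 1 rose with Hac1 retained. For assembly factors and activators with Hac1 depleted, the shares that fell were near that of all genes.

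The cytosolic ribosome and the respiratory chain are the machines that neighbour this ribosome in function. Cytosolic ribosomal protein genes had median log2 changes in mRNA of -0.90 with Hac1 depleted and -0.82 with Hac1 retained, with 128 and 131 of 138 falling. The 40 respiratory chain and ATP synthase genes had medians of -1.01 and -1.32, with 35 and 38 falling. Over all genes 17.5% and 12% fell. The mitochondrial ribosomal medians were -0.71 and -0.64. No test was made of the difference between these lists.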

How the data were processed

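mRNA-seq and ribosome profiling values were taken from 2 tables of 6679 genes, 12 libraries of the deletion experiment and 22 of the auxin experiment. The authors deposited RPKM values; the header of the auxin table names no unit, and RPKM was inferred from its range, sums and gene set. Per the submitters' processing notes CASAVA, bcl2fastq 2.17 and Bowtie2 were used; no source here names the counting, strand, build or annotation, so genes that overlap another one (MRPL19, MRPL51 and MRP4 among the members) may share its reads. RefSeq R64 names matched 5994 identifiers.

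Counts were not used here. Of the deposited values 79.8% to 89.8% were whole multiples of a library step within 0.02, after shortening genes by 60 nt, and this gave depth estimates only. A pseudocount of 1 was added before log2. Genes averaging 5 RPKM or more over the 11 libraries of a molecule entered limma 3.58.1 in R 4.3.3 with group and hour as terms, a mean-variance trend, 4 residual degrees of freedom and Benjamini-Hochberg adjustment over all genes, and the calculation was tested on simulated data. The labelled hours served as replicates, and hour was kept as a block. That term removed the time difference common to all groups, so p-values rest on how far single groups departed from it. Nothing says that the cultures were separate, so this scatter need not equal the spread between independent cultures. TE was the log2 footprint minus log2 mRNA value. The deletion experiment has 1 library per group and no test. Other steps used Python 3.11.15 and pandas 2.3.3.

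The members and all lists were chosen with earlier results of these data known. Genes were named where they had the 3 largest falls or rises called in a contrast, were called against the median direction, or had the highest or lowest level or TE; MRPL50, MRP1 and the other named genes were chosen after their values were seen. Sequences were not used here.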

Additional observations from a re-analysis of the deposited data

Results flagged for a closer look

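MRPL50, the gene of the large-subunit protein bL9m, had RPKM ratios of opposite sign with DTT in the 2 strains of the deletion experiment. Its mRNA was 516.3 RPKM with DTT and 729.9 RPKM untreated in hac1-deletion cells, and 741.0 RPKM with DTT and 642.2 RPKM untreated in WT cells, a difference of the log2 responses of -0.704606. Its footprints were 345.3 RPKM with DTT and 460.2 RPKM untreated in hac1-deletion cells, and 501.3 RPKM with DTT and 427.9 RPKM untreated in WT cells, a difference of -0.641587. The WT rises, 0.21 and 0.23 on the log2 scale, lay below the medians of all genes, 0.30 and 0.35, and after median-ratio scaling no difference passed 1.5-fold. With 1 library per group these differences were not tested.

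Footprints of MRPS9 and RSM26 had RPKM ratios of opposite sign with Tm in the 2 strains. MRPS9, the uS9m gene, had 696.5 RPKM with Tm and 675.5 RPKM untreated in hac1-deletion cells, and 252.3 RPKM with Tm and 378.2 RPKM untreated in WT cells, a difference of the log2 responses of 0.626514. RSM26, the gene of mS42, a relative of superoxide dismutase, had 373.2 RPKM with Tm and 346.7 RPKM untreated in hac1-deletion cells, and 202.3 RPKM with Tm and 299.4 RPKM untreated in WT cells, a difference of 0.669644. The rises in hac1-deletion cells were 0.04 for MRPS9 and 0.11 for RSM26, against a median of 0.10 over all genes, and 64 of the 66 ribosomal genes lay below the median of their own chromosome there. These differences were not tested either.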

How the results depend on the processing

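Counts are of the 67 genes, MRP8 included, and stand without the share of all genes except where all genes are named. Under no alternative did a named change that was called turn its direction. After median-ratio scaling, which moved the median of all mRNAs under DTT from 0.24 to about -0.01 with Hac1 retained, 58 mRNAs fell with Hac1 retained and 64 with Hac1 depleted. Without the replicate block, that is without the hour, 56 mRNAs, 43 footprint values and 10 TE values were called with Hac1 depleted, and 39 and 45 with Hac1 retained, and 0 footprint values between depleted and retained cells with DTT. That last count was 2 with a mean of at least 20 RPKM or median-ratio scaling and 0 with no trend. With Hac1 depleted 7 TE values were called after median-ratio scaling and 7 with no trend. Between 2 h and 1 h, no filter or no trend left 0 calls in mRNA and 0 in footprints, and median-ratio scaling gave 7 in footprints. Leaving out single libraries gave 26 to 47 mRNAs called with Hac1 retained, 0 to 25 TE values with Hac1 depleted and 0 to 1 with Hac1 retained. Between depleted and retained cells with DTT it gave 0 to 1 in mRNA, 0 to 13 in footprints and 0 to 5 in TE, and without DTT 0 to 2 in footprints. It gave 0 to 3 footprint values for the difference of responses, 0 to 1, 0 to 2 and 0 to 3 for auxin against vehicle in +TIR cells in mRNA, footprints and TE, and 0 to 3 in mRNA and 0 to 35 in footprints between 2 h and 1 h. In the deletion experiment median-ratio scaling put 26 mRNAs and 42 footprint values past 1.5-fold with DTT in hac1-deletion cells, and 48 and 51 in WT cells. It put 5 mRNAs and 20 footprint values past it with Tm in WT cells, 9 and 10 between untreated strains, 0 and 0 for the difference of DTT responses and 2 mRNAs for that of Tm responses. At 2-fold, 1 and 1 passed with DTT in hac1-deletion cells, 1 and 1 in WT cells, and 1 footprint value with Tm in WT cells. Between hac1-deletion and WT cells 2 and 4 passed untreated, 1 and 3 with DTT and 7 and 10 with Tm, and 0 for either difference of responses. The cause of these changes was not tested.

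The relative unit, the hours used as replicates and the single library without DTT where Hac1 was retained limit every comparison of the auxin experiment. Leaving that library out leaves no value for the contrasts that need it, and without either hour of a group its other library is taken to vary like the rest. In the deletion experiment nothing separates strain from library. The smallest estimated read number of a member was about 152.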
